A study of Homo sapiens with 16 samples.

Results

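A set of 9 keratin genes of epithelial cells, KRT20 set aside, was followed by RNA sequencing in a pair of human colorectal cancer lines with and without itraconazole. The 9 genes, KRT7, KRT8, KRT10, KRT15, KRT17, KRT18, KRT19, KRT23 and KRT80, were given by name, and each was matched by symbol to 1 of the 54127 Ensembl identifiers in the count files. HT55 and SW948 are established lines, both assigned by the study to the CCS1 subtype, and itraconazole is an antifungal drug that also blocks Hedgehog signaling. Adherent cultures received DMSO as the vehicle or itraconazole at 5 µM, and RNA was sequenced at day 6, with 4 libraries in each of the 4 groups (HT55 DMSO, HT55 itraconazole, SW948 DMSO, SW948 itraconazole). Each line is a single cell line, so a difference between HT55 and SW948 compares these lines only. The paper describes its experiments as done with 4 biological replicates, but the labels do not say whether the 4 libraries of a group came from separate cultures. The p-values therefore measure only the spread between these libraries.

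Keratins are the intermediate filament proteins of epithelial cells, and a filament is built from pairs that join an acidic type I chain with a basic type II chain. KRT8 (type II) and KRT18 (type I) are the primary pair of simple epithelia such as the gut lining, where KRT19 is a further type I chain. Filaments anchor to desmosomes and hemidesmosomes and are rearranged when epithelial cells are injured, differentiate or become invasive. Among the other type II genes studied here, KRT7 is typical of ductal and glandular epithelia and is usually scarce in the colon, and KRT80 is found at cell margins of differentiating epithelia. Among the other type I genes, KRT23 is an inducible keratin of stressed epithelia and some gastrointestinal tumors, KRT10 belongs to differentiating epidermis, KRT15 to basal cells and KRT17 to injured or activated skin.

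Libraries held between 8269406 and 11110814 reads assigned to genes. The labelled tissue was checked first: all 8 colorectal epithelial markers (EPCAM, CDH1, VIL1, CDH17, LGALS4, CDX1, CDX2 and KRT20) were counted in every group. They also moved with the drug, 6 higher, 0 lower and 2 not called in HT55 (median log2 change 0.47) and 3 higher and 5 lower in SW948 (median -0.43). In SW948, CDX2, CDX1, CDH17 and VIL1 had log2 changes of -0.88, -0.73, -0.66 and -0.63, while EPCAM, LGALS4 and KRT20 rose. In counts per 1000000 (CPM), these 3 went from 1457 to 2235, 548 to 797 and 660 to 874. The 8 markers together summed to 4778 to 4868 CPM in SW948 DMSO and 5352 to 5432 CPM in SW948 itraconazole. Their part in the keratin values was not tested. The 11 markers of stratified squamous epithelium summed to between 0.30 and 3.35 CPM over all 16 libraries, and KRT5, KRT14, KRT6B, KRT1 and IVL had no read. Summed fibroblast markers (6 genes) ranged from 1.41 to 2.13 CPM in HT55 DMSO, 3.33 to 3.97 in HT55 itraconazole, 2.54 to 4.68 in SW948 DMSO and 9.94 to 12.1 in SW948 itraconazole, where COL1A1 held 10.1 CPM and COL3A1 had no read. Endothelial markers (3 with an identifier of 4) ranged from 0 to 0.71 CPM. Summed leukocyte markers (5 genes) ranged from 15.5 to 23.5 CPM in SW948 DMSO and from 109 to 112 CPM in SW948 itraconazole. They ranged from 27.9 to 32.6 CPM in HT55 DMSO and from 21.2 to 61.6 CPM in HT55 itraconazole. Nearly all of this was CD68, while CD3E had no read in any group and PTPRC had none in SW948. The part of the fibroblast and leukocyte marker rises in the keratin values was not tested. HT55 itraconazole replicate 3 and SW948 itraconazole replicate 1 had the scaling factors nearest to those of their controls, 0.970 and 0.969. Any keratin call that changed when either was left out is given with and without it.

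Reads of 50 bases cannot always be placed for these genes. For KRT8, 47.1% of the 1735 windows of 50 bases in its canonical transcript had an exact copy elsewhere in the GRCh37 genome, and among the genes matched were 27 KRT8 pseudogenes. For KRT18, it was 39.1% of 1364 windows and 42 KRT18 pseudogenes. The share was 14.4% for KRT17, 1.79% for KRT19, 0.825% for KRT7 and 0.418% for KRT80, and no window of KRT10, KRT15 or KRT23 had a copy. Reads that aligned to more than 1 place were set aside in the deposited tables, so KRT8 and KRT18 were counted on the remainder of their sequence.

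**Figure D1:**
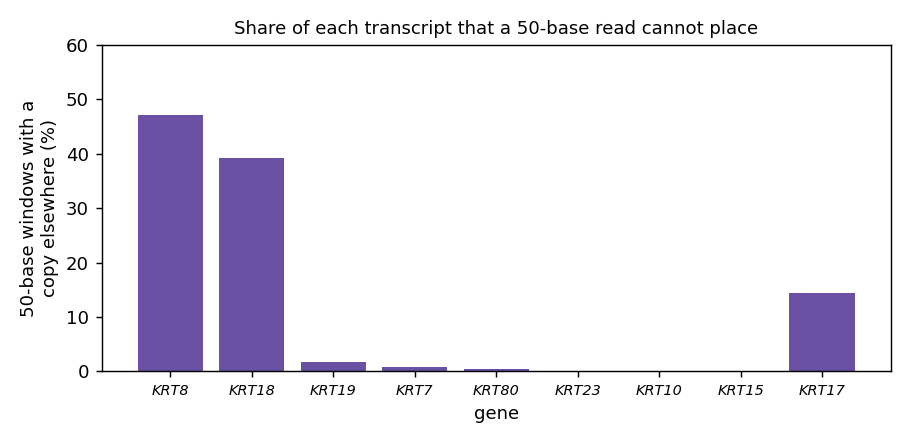
Percent of 50-base windows of each keratin's canonical transcript (one bar per gene) with an exact copy elsewhere in GRCh37. KRT8 and KRT18 stand at 47.1% and 39.1%, KRT17 at 14.4%, and the other genes below 2%.

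The windows below, written 5′ to 3′ on the coding strand from GRCh37 and the GENCODE transcripts, are shown because this read sharing bears on the most abundant pair. Bases 15 to 64 of the KRT8 coding sequence are identical to the processed pseudogene KRT8P33 at chr5:122737974-122738023 on the minus strand, and bases 474 to 523 of KRT18 are identical to KRT18P28 at chr1:182928979-182929028, also on the minus strand. A read from either window has the same letters in gene and pseudogene.
KRT8 bases 15 to 64: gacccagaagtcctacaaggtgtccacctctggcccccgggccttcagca
KRT18 bases 474 to 523: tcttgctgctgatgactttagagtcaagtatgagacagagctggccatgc
Other windows separate the same genes. Bases 460 to 509 of KRT8 differ at 3 positions from KRT8P33 at chr5:122737529-122737578, and bases 658 to 707 of KRT18 differ at 3 positions from KRT18P28 at chr1:182928795-182928844. Capitals mark the bases that differ.
KRT8 bases 460 to 509: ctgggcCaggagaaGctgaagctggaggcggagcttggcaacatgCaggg
KRT8P33: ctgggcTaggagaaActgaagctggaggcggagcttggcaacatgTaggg
KRT18 bases 658 to 707: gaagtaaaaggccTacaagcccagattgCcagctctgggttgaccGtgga
KRT18P28: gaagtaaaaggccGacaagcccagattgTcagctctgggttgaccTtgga
These windows separate the gene from the named pseudogene only: the KRT8 window still had 2 exact copies elsewhere in the genome and the KRT18 window 3.

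The pseudogenes themselves held few reads. The 42 KRT8 pseudogenes together had 2063 counts in the 16 libraries against 355216 for KRT8, which is 0.581%, and the 60 KRT18 pseudogenes had 685 against 235389, which is 0.291%. In SW948, 6 keratin pseudogenes had enough counts to test, of which 4 rose and 1 fell with itraconazole, where 80.2% of all genes tested were called. In HT55, 7 were tested, of which 0 rose, 1 fell and 6 were not called, where 54% of all genes were called. In SW948, KRT8P33 went from 0.757 ± 0.162 to 1.58 ± 0.435 CPM (SD, n = 4), a log2 change of 1.01 ± 0.29 (SE). KRT18P28 went from 0.795 ± 0.284 to 1.52 ± 0.469 CPM in SW948, a log2 change of 0.88 ± 0.33. In HT55 the log2 changes of KRT8P33 and KRT18P28 were -0.02 and 0.48, and neither was called. The pseudogene that fell in both lines was KRT8P12, a transcribed pseudogene on chromosome 3. It went from 4.27 ± 0.350 to 1.12 ± 0.335 CPM in SW948 and from 2.42 ± 0.632 to 1.24 ± 0.279 CPM in HT55. These 3 pseudogenes were chosen after their values were seen. Adding all pseudogene counts to their parent genes changed no call on a keratin. At 0.581% of KRT8 and 0.291% of KRT18 such an addition could hardly move a call. Reads set aside for aligning to more than 1 place are not recovered by this step.

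Among the 9 listed keratins, with KRT20 set aside, KRT8, KRT18 and KRT19 had the highest level per length in every group. On RPKM over merged exons (CPM per kilobase), HT55 DMSO held KRT18 at 604 ± 14, KRT8 at 391 ± 5, KRT19 at 244 ± 8, KRT23 at 102 ± 2, KRT80 at 37.03 ± 2.24, KRT10 at 9.93 ± 0.75 and KRT15 at 1.05 ± 0.03 (SD, n = 4). KRT7 and KRT17 came last at 0.104 ± 0.046 and 0.0453 ± 0.0668, and these were the only neighbours in that order whose libraries overlapped. In SW948 DMSO the order was KRT18 at 332 ± 8, KRT8 at 189 ± 9, KRT19 at 163 ± 8, KRT80 at 28.7 ± 1.7, KRT23 at 21.7 ± 0.7, KRT10 at 7.57 ± 1.01, KRT15 at 0.635 ± 0.099 and KRT7 at 0.370 ± 0.060, with KRT17 at 0.00789 ± 0.01578 and no overlap between neighbours. KRT23 thus stood above KRT80 in HT55 and below it in SW948.

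After itraconazole the order of RPKM levels was less separated. In HT55 itraconazole KRT23 at 83.6 ± 26.2 and KRT80 at 65.8 ± 7.6 overlapped. In SW948 itraconazole KRT18 at 560 ± 63, KRT19 at 424 ± 114 and KRT8 at 393 ± 91 overlapped in that order, KRT80 stood at 113 ± 26, and KRT23 at 9.33 ± 0.86 overlapped KRT10 at 8.75 ± 1.88. The place of KRT8 rests on the length used. Its merged exons span 6881 bases against 1784 in the canonical transcript, and on the canonical length KRT8 stood first in all 4 groups, at 1508 ± 20 RPKM against 1313 ± 31.3 for KRT18 in HT55 DMSO, while the libraries of both genes overlapped in the SW948 groups.

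**Figure D2:**
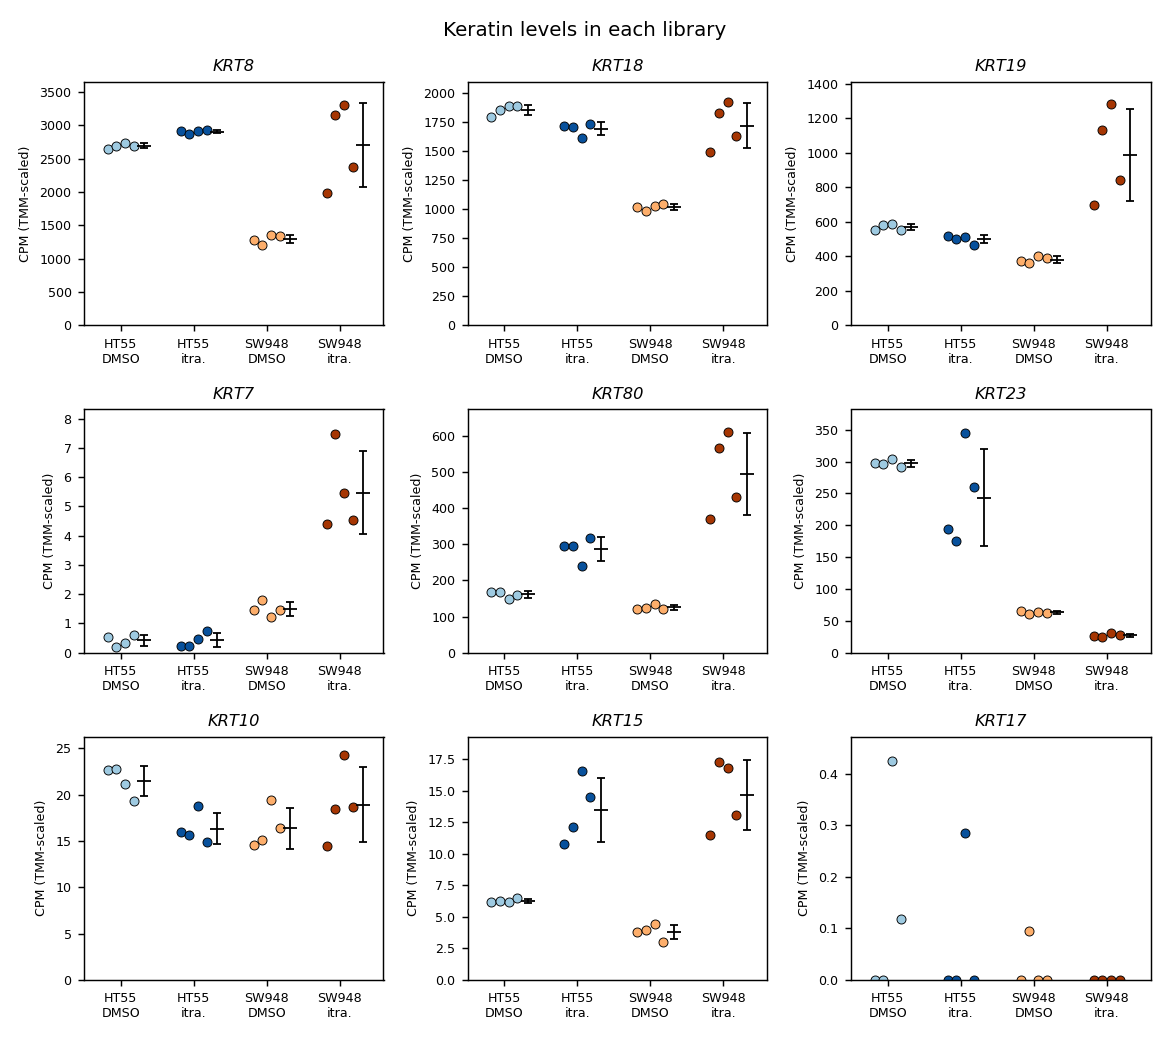
CPM on TMM-scaled totals for the 9 keratins, one panel each with its own linear axis from 0; points are the 4 libraries of a group and the black mark is the mean with its SD (left out for KRT17). KRT8, KRT18, KRT19, KRT7, KRT80 and KRT15 rise in SW948 itraconazole against SW948 DMSO, KRT23 falls there, and KRT17 has at most 4 reads in a library.

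KRT8 lies at chr12:53290971-53343738 on the minus strand. In HT55 it measured 2646, 2693, 2733 and 2689 CPM in DMSO and 2918, 2868, 2907 and 2921 CPM in itraconazole. The treated libraries were all above the DMSO libraries by a small margin, and the log2 change of 0.11 ± 0.06 (SE) did not pass the edgeR quasi-likelihood test (adjusted p = 0.158). In SW948, KRT8 measured 1285, 1212, 1354 and 1339 CPM in DMSO and 1981, 3153, 3298 and 2371 CPM in itraconazole. It rose with a log2 change of 1.03 ± 0.13, or 2.04-fold (edgeR adjusted p = 6.99e-06), and every treated library lay above every DMSO library. In bulk RNA, more RNA per cell and a changed mix of cells cannot be told apart.

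KRT18, the type I partner of KRT8, lies beside it at chr12:53342655-53346690 on the plus strand. The annotated exons of both genes overlap by 525 bases on opposite strands, and the strand setting of the counts was not given in the sources used here. In HT55, KRT18 measured 1794, 1852, 1887 and 1887 CPM in DMSO and 1716, 1710, 1611 and 1735 CPM in itraconazole. The treated libraries were all lower, with a log2 change of -0.14 ± 0.06 that did not pass the test (edgeR adjusted p = 0.0803). In SW948, KRT18 measured 1016, 984, 1029 and 1041 CPM in DMSO and 1495, 1826, 1926 and 1631 CPM in itraconazole. It rose 1.65-fold, a log2 change of 0.72 ± 0.08 (edgeR adjusted p = 1.74e-06), with no overlap between the groups.

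KRT19, the smallest keratin and one without a tail domain, lies at chr17:39679869-39684560. In HT55 it measured 553, 582, 589 and 554 CPM in DMSO and 518, 501, 513 and 466 CPM in itraconazole. It fell, with a log2 change of -0.19 ± 0.06 (edgeR adjusted p = 0.0212). The call was lost without any 1 of the 4 DMSO libraries or itraconazole replicate 4, with log2 values of -0.20 to -0.16. In SW948 the same gene measured 373, 359.7, 402 and 391 CPM in DMSO and 700.4, 1133, 1283 and 841 CPM in itraconazole. It rose 2.54-fold, a log2 change of 1.34 ± 0.15 (edgeR adjusted p = 1.27e-06).

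The 4 treated SW948 libraries kept one order in all 3 simple keratins: replicate 1 was lowest, then replicates 4, 2 and 3. Their TMM scaling factors fell in the same order, 0.969, 0.925, 0.888 and 0.871, against 1.17 to 1.18 in SW948 DMSO. Scaling on plain library totals moved the median log2 change of all genes by -0.33 in SW948 and -0.16 in HT55. On that scale the SW948 values were 0.68 for KRT8, 0.39 for KRT18 and 0.998 for KRT19, all still called. In HT55 they were -0.059 for KRT8, not called, and -0.36 for KRT19 and -0.30 for KRT18, both called, so KRT18 gained a call there (edgeR adjusted p = 0.000742).

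KRT80 and KRT7 are the other type II genes. KRT80, at chr12:52562780-52585798, measured 169, 169, 148 and 161 CPM in HT55 DMSO and 297, 296, 239.7 and 317 CPM in HT55 itraconazole. In SW948 it measured 119.8, 125, 136 and 119.9 CPM in DMSO and 369, 569, 611 and 432 CPM in itraconazole. It rose in both lines without overlap, 1.77-fold in HT55 (log2 change 0.83 ± 0.09, edgeR adjusted p = 4.60e-05) and 3.87-fold in SW948 (log2 change 1.95 ± 0.13, edgeR adjusted p = 1.01e-08). Of all genes tested, 84.6% in HT55 and 89.6% in SW948 had an absolute log2 change no larger than that of KRT80.

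KRT7, at chr12:52626304-52645970, was close to the limit of detection in HT55, with 2 to 5 reads per DMSO library and 2 to 6 per itraconazole library. Both HT55 groups held 15 reads in all, a difference not detectable at this depth (two-sided exact permutation test on CPM, p = 0.8, where the smallest possible p is 0.0286). In SW948 it held 18, 19, 14 and 19 reads in DMSO and 44, 58, 43 and 40 in itraconazole, or 1.44, 1.80, 1.21 and 1.46 CPM against 4.40, 7.47, 5.47 and 4.52 CPM. KRT7 rose 3.57-fold in SW948 (log2 change 1.83 ± 0.22, edgeR adjusted p = 3.68e-06). It remained the scarcest of the keratins tested in that line on both lengths.

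KRT23, at chr17:39078952-39093898, was the keratin that fell in SW948. There it measured 65.7, 61.3, 63.9 and 62.0 CPM in DMSO and 25.9, 24.9, 30.6 and 27.2 CPM in itraconazole. All treated libraries lay below all DMSO libraries, with a log2 change of -1.25 ± 0.08 (edgeR adjusted p = 4.30e-09). In HT55 it measured 297, 296, 304 and 291 CPM in DMSO and 195, 175, 344 and 259.5 CPM in itraconazole. Treated replicate 3 stood above every DMSO library and the other 3 treated libraries below, so the groups overlapped and the log2 change of -0.29 ± 0.17 was not called (edgeR adjusted p = 0.182). Without replicate 3 it was -0.50 ± 0.10 and called (edgeR adjusted p = 0.000774), and without replicate 2 it was -0.16 ± 0.15 and not called (edgeR adjusted p = 0.388).

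KRT10, at chr17:38974369-38978866, was called in HT55 and not in SW948. In HT55 it measured 22.7, 22.7, 21.2 and 19.3 CPM in DMSO and 16.01, 15.7, 18.7 and 14.9 CPM in itraconazole, and it fell without overlap (log2 change -0.40 ± 0.11, edgeR adjusted p = 0.00939). In SW948 it measured 14.5, 15.1, 19.4 and 16.4 CPM in DMSO and 14.4, 18.4, 24.3 and 18.6 CPM in itraconazole. The SW948 groups overlapped, and the log2 change of 0.17 ± 0.15 was not called (edgeR adjusted p = 0.294). It became 0.30 ± 0.13 and was called without treated replicate 1 (edgeR adjusted p = 0.0389). Without treated replicate 3 it was 0.033 ± 0.128 (edgeR adjusted p = 0.823), and on plain totals it was -0.17. The annotated exons of KRT10 share 61 bases with KRT10-AS1 on the opposite strand, which held 682 counts against 2800 for KRT10. KRT10-AS1 had log2 changes of -0.60 in HT55 and 1.64 in SW948, both called. Its part in the KRT10 values was not tested.

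KRT15, at chr17:39669997-39678781, was low but rose in both lines. It measured 6.17, 6.27, 6.15 and 6.52 CPM in HT55 DMSO and 10.8, 12.1, 16.5 and 14.5 CPM in HT55 itraconazole, a 2.15-fold rise (log2 change 1.10 ± 0.15, edgeR adjusted p = 0.000211). In SW948 it measured 3.77, 3.97, 4.42 and 3.003 CPM in DMSO and 11.5, 17.3, 16.8 and 13.1 CPM in itraconazole, a 3.77-fold rise (log2 change 1.91 ± 0.17, edgeR adjusted p = 1.50e-07). These values rest on 39 to 61 reads per DMSO library and 91 to 174 per treated library, and none of its 50-base windows has a copy elsewhere.

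KRT17, at chr17:39775694-39781094, was at the floor of the data. HT55 DMSO held 5 reads in all, of which replicate 3 had 4, and HT55 itraconazole held 3, all in replicate 3 (two-sided exact permutation test, p = 0.714). SW948 DMSO held 1 read and SW948 itraconazole none, which allows up to 0.0797 CPM over that group by a limit of 3 counts for counting error only. KRT17 therefore gave no fold change.

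**Figure D3:**
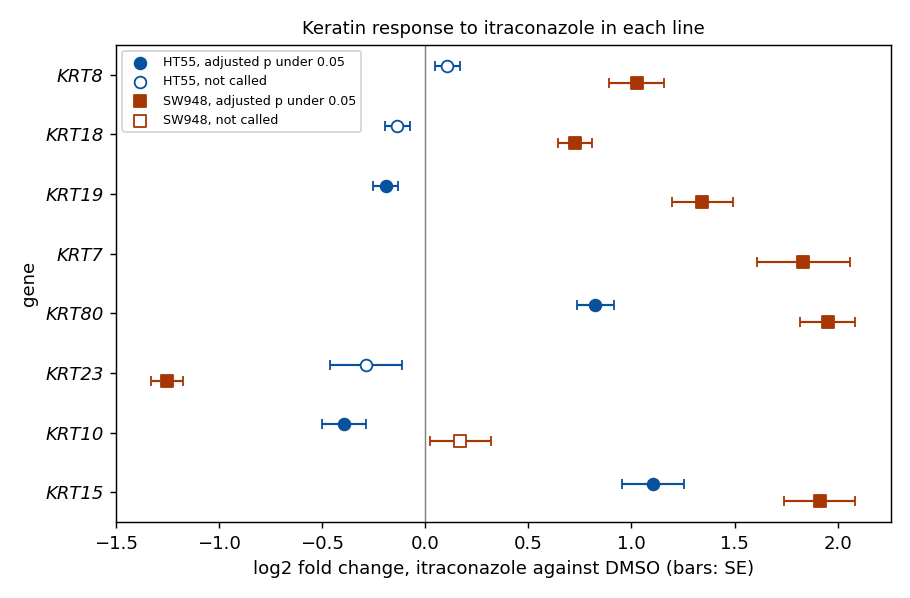
Log2 fold change of each keratin, itraconazole against DMSO, in HT55 (circles) and SW948 (squares) with its SE; filled symbols have an edgeR adjusted p under 0.05. In SW948 all values but that of KRT23 lie to the right of 0, while in HT55 the values run from -0.40 for KRT10 to 1.10 for KRT15.

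Counted over the list, 4 of the 7 keratins tested in HT55 were called, KRT80 and KRT15 higher and KRT19 and KRT10 lower, where 54% of all 12133 genes tested were called (27.5% higher, 26.5% lower). In SW948, 7 of 8 were called, 6 higher and KRT23 lower, where 80.2% of all 12505 genes were called (38.9% higher, 41.3% lower). KRT7 and KRT17 in HT55 and KRT17 in SW948 had too few reads to test. Both shares are near the background, so the counts say little about the keratins as a list, and the sizes and directions above carry the description. The median log2 change was -0.14 in HT55 and 1.18 in SW948 over the keratins tested, and -0.02 in each line over all genes. KRT80 and KRT15 were the members of the list that rose in both lines.

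The responses of both lines were then set against each other in a fit over all 16 libraries, with the difference taken as the SW948 effect minus the HT55 effect. All 8 keratins tested passed (edgeR quasi-likelihood test, adjusted p under 0.05), 7 with a positive and 1 with a negative difference, where 53.9% of all 13249 genes did (24.8% positive, 29.1% negative). The difference on the log2 scale was 1.56 ± 0.18 for KRT19, 0.95 ± 0.16 for KRT8 and 0.89 ± 0.11 for KRT18. It was 1.16 ± 0.17 for KRT80, 0.84 ± 0.24 for KRT15, 0.60 ± 0.19 for KRT10 and 1.82 ± 0.57 for KRT7. KRT7 entered this fit only through its SW948 reads, with 2 to 6 reads per HT55 library, so its value is a description and its call no support; a minimum of 10 counts in every library leaves 7 keratins tested. KRT23 was the only one with a negative difference, -0.93 ± 0.21. KRT10 was not called on plain totals, at 0.39 (edgeR adjusted p = 0.0900). KRT80 and KRT15, which rose in both lines, rose more in SW948.

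The balance within the primary pair was described from the ratio of KRT8 to KRT18 counts, which needs no length when groups are compared. It was 1.48, 1.45, 1.45 and 1.42 in HT55 DMSO and 1.70, 1.68, 1.80 and 1.68 in HT55 itraconazole. It was 1.26, 1.23, 1.32 and 1.29 in SW948 DMSO and 1.32, 1.73, 1.71 and 1.45 in SW948 itraconazole. Treated libraries were above the DMSO libraries in both lines, with SW948 itraconazole replicate 1 only just above. As ratios of RPKM over merged exons the group means were 0.647 ± 0.009, 0.765 ± 0.027, 0.568 ± 0.016 and 0.693 ± 0.088 in the same order (SD, n = 4). KRT8 windows are shared with pseudogenes more than KRT18 windows are, and the part of this in the ratio was not tested.

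**Figure D4:**
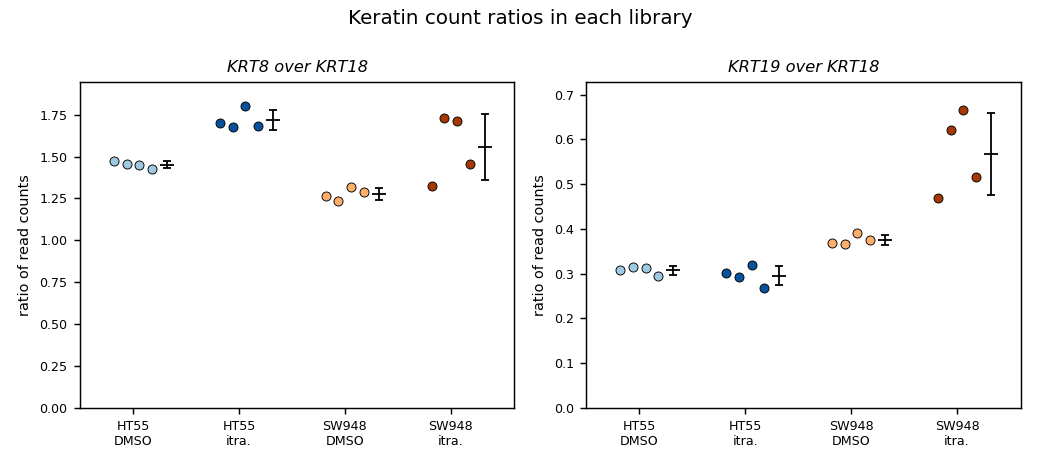
Ratio of read counts KRT8 over KRT18 (left) and KRT19 over KRT18 (right) in each library on linear axes from 0; the black mark is the group mean with its SD. KRT8 over KRT18 lies higher after itraconazole in both lines, and KRT19 over KRT18 lies higher after itraconazole in SW948 while the HT55 groups overlap.

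The ratio of KRT19 to KRT18 counts behaved otherwise. It was 0.308, 0.314, 0.312 and 0.293 in HT55 DMSO and 0.302, 0.293, 0.318 and 0.268 in HT55 itraconazole, which overlapped. It was 0.368, 0.365, 0.390 and 0.375 in SW948 DMSO and 0.468, 0.621, 0.666 and 0.516 in SW948 itraconazole, which did not. The type II genes KRT8, KRT7 and KRT80 made up 30.8% ± 0.3 of the summed RPKM of the 9 keratins in HT55 DMSO, 36.2% ± 0.6 in HT55 itraconazole, 29.3% ± 0.3 in SW948 DMSO and 33.4% ± 1.4 in SW948 itraconazole. On this merged exon length HT55 itraconazole replicate 3 stood apart at 35.3%, and without it the mean of that group was 36.5%. The 9 genes together took 0.562 to 0.583% of gene counts in HT55 DMSO, 0.484 to 0.548% in HT55 itraconazole, 0.325 to 0.355% in SW948 DMSO and 0.446 to 0.626% in SW948 itraconazole.

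Between the untreated lines, HT55 held more of 7 keratins and less of KRT7. All 8 tested were called, 7 higher in HT55 and 1 lower, where 84.2% of all 12820 genes were (41.6% higher, 42.6% lower). KRT23 was 4.69-fold higher in HT55 (log2 difference 2.23 ± 0.04), KRT8 2.07-fold (1.05 ± 0.04), KRT18 1.82-fold (0.86 ± 0.04), KRT15 1.66-fold (0.73 ± 0.15), KRT19 1.49-fold (0.57 ± 0.04), KRT10 1.31-fold (0.39 ± 0.09) and KRT80 1.29-fold (0.37 ± 0.05). KRT7 was listed lower in HT55, with a log2 difference of -1.83 ± 0.34, but it was tested only through its 14 to 19 reads per SW948 library, against 2 to 5 in HT55, and its call is a description only. KRT10 overlapped between the lines and was not called on plain totals, at 0.20 (edgeR adjusted p = 0.0515).

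After itraconazole 4 of 8 were called between the lines, 1 higher in HT55 and 3 lower, where 76.6% of all 12353 genes were (38.8% higher, 37.8% lower). KRT8 and KRT18 differed by 0.10 ± 0.15 and -0.03 ± 0.10 on the log2 scale, HT55 minus SW948, and their libraries overlapped (edgeR adjusted p = 0.559 and 0.825). KRT15 and KRT10 also overlapped, at -0.11 ± 0.18 and -0.21 ± 0.16. A p above the threshold does not show that these levels were equal. KRT19 and KRT80 had changed sides and were lower in HT55 than in SW948, by log2 differences of -0.99 ± 0.16 and -0.79 ± 0.15 (edgeR adjusted p = 0.000123 and 0.000399). KRT23 and KRT7 kept their sides, at 3.16 ± 0.20 and -3.64 ± 0.35, the latter again tested only through its SW948 reads. Each comparison between lines shares its libraries with a comparison between treatments.

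**Figure D5:**
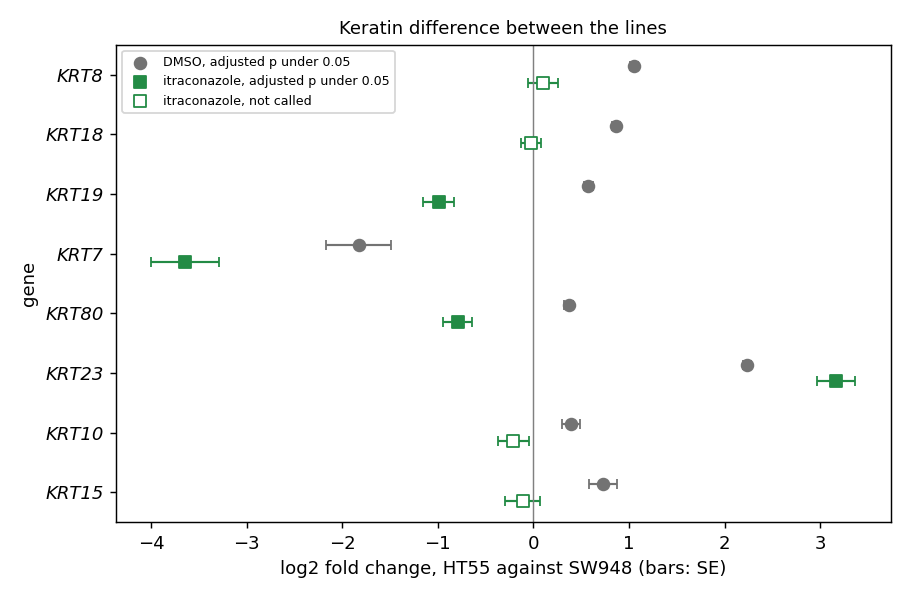
Log2 difference of each keratin, HT55 against SW948, in DMSO (circles) and in itraconazole (squares) with its SE; filled symbols have an edgeR adjusted p under 0.05. KRT8, KRT18, KRT15 and KRT10 lie right of 0 in DMSO and within 0.21 of 0 in itraconazole, while KRT19 and KRT80 cross to the left.

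Most other keratin genes had few or no reads. Of 45 further keratin coding genes, 21 had no read in any library and 41 had fewer than 60 reads in all. KRT83, a hair keratin, measured 74.4 ± 7.1 CPM in HT55 DMSO and 31.0 ± 17.97 CPM in HT55 itraconazole (log2 change -1.25 ± 0.32, edgeR adjusted p = 0.00761), and 0.290 ± 0.091 and 2.18 ± 0.739 CPM in SW948. KRT12, known from the cornea, went from 0.272 ± 0.207 to 13.8 ± 2.1 CPM in SW948 and stood at 1.11 ± 0.63 CPM in HT55 itraconazole. KRT12 was chosen after its values were seen. KRT20, the keratin of differentiated intestinal cells, rose by a log2 change of 1.13 ± 0.14 in HT55 and 0.37 ± 0.07 in SW948.

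Genes listed as partners of keratin filaments, among them junction proteins, moved in both directions. Of 22 such genes 18 were tested; 12 were higher, 2 lower and 4 not called in HT55 (median log2 change 0.35), and 9 were higher, 7 lower and 2 not called in SW948 (median 0.15), where 54% of all genes were called in HT55 (27.5% higher) and 80.2% in SW948 (38.9% higher). In HT55 the cytolinkers DST, DSP and PPL rose by 1.04 ± 0.13, 0.99 ± 0.08 and 0.72 ± 0.08 on the log2 scale. In SW948 the hemidesmosome collagen COL17A1 went from 306 ± 22 to 83.0 ± 9.4 CPM (log2 change -1.91 ± 0.09), the adaptor SFN from 49.1 ± 2.2 to 140.04 ± 53.6 CPM and the desmosome protein PKP1 from 24.2 ± 0.4 to 59.8 ± 2.0 CPM. The keratin-binding protein TCHP fell in both lines, with log2 changes of -0.82 in HT55 and -1.199 in SW948.

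Intermediate filaments of other classes were few. Of 14 with an identifier, 5 were tested in HT55, with 3 higher and 2 lower, and 6 in SW948, with 3 higher, 1 lower and 2 not called, against 54% and 80.2% of all genes called. The nuclear lamin LMNA rose by 0.22 ± 0.06 in HT55 and by 0.97 ± 0.09 in SW948 on the log2 scale, and LMNB1 fell by 0.58 in HT55. The neuronal filament gene PRPH went from 15.9 ± 3.1 to 1.995 ± 0.622 CPM in SW948. Of 16 epithelial transcription factors 12 were tested, with 7 higher, 0 lower and 5 not called in HT55 and 6 higher and 6 lower in SW948, against the same shares of 54% and 80.2% over all genes. SNAI1, a repressor of epithelial genes, rose by 1.005 ± 0.156 in HT55 and by 3.48 ± 0.19 in SW948. In SW948 the grainyhead factors GRHL1 and GRHL2 moved apart, with log2 changes of 1.32 ± 0.08 and -1.31 ± 0.09, and in HT55 the epithelial ETS factor ELF3 rose by 0.77 ± 0.06.

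Likeness between genes was described by Pearson's r of log2 CPM over the 16 libraries among 11959 other protein coding genes, with no test since libraries of a group share their treatment and line. For KRT8 the highest values were those of SH3BP1, JDP2 and PLIN2 (r = 0.985, 0.984 and 0.981), and KRT18 was in position 11 at 0.969. For KRT18 they were MT2A, SRSF4 and HNRNPF (0.988, 0.987 and 0.983), and for KRT19 CDC34, PPP2CA and CTNNAL1 (0.982, 0.979 and 0.966). For KRT23 they were SLC12A2, MOCS1 and TLR4 (0.994, 0.993 and 0.992), for KRT15 CAMK2N1, NECTIN4 and SYT7 (0.989, 0.986 and 0.978), and for KRT10 CDK2, TIMM44 and ADAM15 (0.867, 0.851 and 0.838). After each line was centred on its own mean, KRT19 and KRT18 were in position 2 and 4 of each other's order (r = 0.987). Without centring that pair had r = 0.67, in positions 1535 and 1467. On the centred scale KRT18 was in position 159 for KRT8, and KRT8 in position 124 for KRT18 (r = 0.95). KRT80 was in position 125 for KRT15, and KRT15 in position 557 for KRT80 (r = 0.963). KRT23 had negative r with KRT8, KRT18, KRT19, KRT80 and KRT15 on the centred scale, from -0.90 with KRT80 to -0.77 with KRT19.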

How the data were processed

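Per the labels, total RNA was extracted with an RNeasy Micro kit and made into TruSeq libraries; the study read 50 bases single-end on a HiSeq. The submitters' processing notes name TopHat, HTSeq, DESeq and build hg19, without versions. The deposited values are raw counts of reads per Ensembl gene (54127 per library). Between 28.2 and 32.9% of the tally was not assigned to a gene, most of it as alignments that were not unique. Here, symbols, positions and lengths came from GENCODE on GRCh37 (47098 identifiers, 97.8% of gene counts). Each comparison was fitted with edgeR 4.0.16 (R 4.3.3; TMM, filterByExpr, quasi-likelihood test) over all genes and called at a Benjamini-Hochberg adjusted p under 0.05; DESeq2 1.42.0 and other settings were alternatives. The script was tested on simulated data. CPM in the text use TMM factors over 16 libraries. Genes under the filter had an exact permutation test over 70 assignments on plain-total CPM. Same-numbered libraries had correlated deviations of -0.02 to 0.12, so numbers were not taken to pair them. Libraries of a group differed beyond counting noise. All 9 keratins were named, and from other lists up to 4 called genes per line with mean log2 CPM of at least 3. The keratins and lists were chosen with earlier results of these data known. The genes most like KRT80 are not reported here.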

Additional observations from a re-analysis of the deposited data

Results flagged for a closer look

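The response to itraconazole differed between the lines for 8 keratins by the interaction term of the edgeR fit (adjusted p under 0.05), taken as the SW948 effect minus the HT55 effect on the log2 scale. The difference was 1.56 for KRT19, 1.16 for KRT80, 0.95 for KRT8, 0.89 for KRT18, 0.84 for KRT15, 0.60 for KRT10 and -0.93 for KRT23. That of KRT7 was 1.82, but KRT7 passed the filter only through SW948, with 2 to 6 reads per HT55 library, and its call was lost at an adjusted p under 0.01 (edgeR adjusted p = 0.0114). For KRT8 and KRT18 the effect in SW948 was called and that in HT55 was not. For KRT19 the effects had opposite signs, and both were called when each line was fitted by itself. In 1 fit on all 16 libraries the HT55 effect of KRT19 was not called (log2 change -0.19, edgeR adjusted p = 0.216). Of 63 groups of 4 libraries tested for a library far from the others (Dixon's test at the 95% level), 3 had one, and chance alone gives about 1 in 20. The type II share in HT55 itraconazole, on merged exon length, was 35.3% in replicate 3 against 36.5 to 36.6% in the others (gap over range 0.94). On canonical transcripts the ratio of type II to type I was 1.005 in replicate 3 against 1.011 to 1.014 in the others. The flag is given for merged exon length only. KRT17 had all its reads in 1 library in HT55 itraconazole and in SW948 DMSO (gap over range 1 in both), on 3 reads and 1 read. With no read in the other libraries that value is fixed in advance. The KRT17 flags are therefore no test result, and the chance rate above does not apply to them.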

How the results depend on the processing

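Of 789 values of single keratins under other settings, 753 kept their direction and their side of the threshold, 27 lost the call, 5 gained it and 4 changed direction. The changes of direction were KRT8 in HT55 (-0.059) and KRT10 in SW948 (-0.17) on plain totals, and, between treated lines, KRT8 without SW948 itraconazole replicate 1 (-0.044, range without each library -0.044 to 0.202) and KRT18 without SW948 itraconazole replicate 3 (0.023, range -0.110 to 0.023). None of these was called before or after. KRT18 in HT55 gained a call on plain totals (-0.30, edgeR adjusted p = 0.000742). With DESeq2's Wald test, KRT8 and KRT18 in HT55 were called (adjusted p = 0.00176 and 0.0208). KRT19 in HT55 was not called in 1 fit on all 16 libraries (edgeR adjusted p = 0.216). Requiring an absolute log2 change of at least 1 left 1 of 4 calls in HT55, 3 of 8 in the interaction, 3 of 8 between DMSO lines and 2 of 4 between treated lines. Without each library in turn the calls numbered 3 to 5 in HT55 (5 without itraconazole replicate 3), 7 to 8 in SW948 (8 without itraconazole replicate 1), 8 in the interaction and between DMSO lines, and 4 between treated lines. With the replicate number as a block the calls numbered 4, 7, 8, 8 and 4, as without it.

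Length choices, added after the data were seen, moved the KRT8 to KRT18 ratio of RPKM from 0.647, 0.765, 0.568 and 0.693 (HT55 DMSO, HT55 itraconazole, SW948 DMSO, SW948 itraconazole) to 1.15, 1.36, 1.01 and 1.23 on canonical transcripts and to 1.31, 1.55, 1.15 and 1.41 on windows without a copy. The type II share moved to 45.3, 50.3, 42.4 and 45.4% and to 51.3, 56.0, 48.2 and 51.6%. The KRT7 difference in HT55, itraconazole minus DMSO, was -0.04 CPM on plain totals, 0.00904 on TMM-scaled CPM and -0.131 to 0.026 without each library; for KRT17 in HT55 it was -0.07 CPM, and -0.139 to 0.029 without each library. At 8 reads of KRT17 and 30 of KRT7 in HT55, depth limits any statement on these genes. Leaving out the 20 top genes removed KRT8, and a minimum of 10 counts in every library removed KRT7 where HT55 took part, so these alternatives gave no value there.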
